A study of Mus musculus with 2 samples.

Results

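The genes described here encode proteins of the spliceosome and its main regulators in mouse: the heterogeneous nuclear ribonucleoproteins (hnRNPs), the SR proteins, the U2AF factor, the SF3A and SF3B subunits of the U2 particle, the proteins of the small nuclear ribonucleoproteins (snRNPs) and the PRPF factors. Members were the genes whose name begins with Hnrnp, Srsf, Sf3a, Sf3b, Snrp, Prpf or U2af in the deposited tables of N6-methyladenosine (m6A) positions. There were 65 such genes of 8262 named genes listed in all, 60 of them in both libraries, 1 in replicate 1 only and 4 in replicate 2 only. A RefSeq list for GRCm38.p6 holds 69 protein-coding names of this form, and the unlisted ones are Prpf39, Snrpg, Srsf12 and Hnrnpa1l2-ps2.

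The study is concerned with m6A laid down by METTL3 during retinal development. Poly(A) RNA of day 6 organoids grown from the wild-type Rx:GFP mouse cell line, treated throughout with AGN at 0.1 µM, was sequenced as native RNA in 2 libraries (RNA002 chemistry, 1 flow cell each). Rx:GFP cells carry a green fluorescent protein that reports Rx (Rax), an early eye-field gene. Both libraries form 1 group with the same genotype, treatment, time and batch label, and no second condition or enzyme mutant was analysed here. The labels name no cell sort, so the organoids may hold cells of several types. They do not say whether the replicates came from separate cultures, so the spread between them may be technical.

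Pre-mRNA splicing removes introns in a series of assembly steps. The U1 particle and U2AF mark the ends of an intron, SF3A and SF3B anchor the U2 particle at the branch point, and the tri-snRNP and PRPF factors build the catalytic core. SR proteins mostly promote the use of exons and hnRNPs often repress it, and members of both families control their own mRNAs through alternative exons. Methylation of adenosine in mRNA is placed by the METTL3 complex within a short consensus known as DRACH, and some hnRNPs have been described as binding RNA whose folding depends on m6A.

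The deposited positions lie on 4 sequences of 5 bases, shown because site levels and the comparison with other genes are read within one of them. Means over the sites of a gene pool them, as do medians of positions listed in 1 library only. In DNA letters, with the adenosine of the consensus in capitals, they are ggAca with 44 sites in splicing genes, ggAcc with 29 sites, ggAct with 25 sites and agAct with 11 sites. The first 3 differ in their last base, and the last differs from ggAct in its first base. For each position the tables give a fraction modified, from 0 to 1, and a coverage, the number of reads over the position. A site below is a position with at least 20 reads in both replicates, matched on transcript and position, and values from both replicates are given in the order replicate 1, replicate 2.

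Replicate 2 was the deeper library, with 50099 listed positions against 26441. Of 8 early retinal marker genes, 7 were listed in both libraries. None of 6 pluripotency and 4 mesoderm or endoderm markers was listed, and of 4 neuronal markers only Tubb3 was, with at most 11 and 17 reads. No listed position has under 5 reads, only 4 5-mers are listed, and some listed positions have a fraction of 0. For a gene absent from the tables, low expression, lack of a listed 5-mer and the unstated listing rule cannot be told apart. In bulk RNA, fewer expressing cells and less RNA per cell cannot be told apart.

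A total of 45 splicing genes had a site in both replicates, with 109 sites when 1 transcript was kept per gene and 141 on all transcripts. This is 69.2% of the 65 listed members, where 22.8% of all listed genes had such a site. Coverage moved with this share: the median was 55 and 127 reads at sites of splicing genes, and 36 and 77 reads at those of other genes. Its part in the share was not tested. A gene with any site had a mean of 2.42 sites among splicing genes and 2.57 among others. In 16 of the 45 genes (35.6%) there were 3 or more sites, against 39.2% of all genes with a site. The number of sites per gene was thus near the background. The genes with the most sites were Sf3b3 with 8, Hnrnpa0 with 7, U2af2 with 6 and Hnrnpa3 with 5.

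By 5-mer, 44 of the 109 sites were GGACA (40.4%, 95% Wilson interval 31.6% to 49.8%), 29 GGACC, 25 GGACT and 11 AGACT. Among 4742 sites of other genes GGACA made up 38.5%. With 50 reads in each replicate the order turned, with 32.8% in splicing genes against 39.6%. The interval covers counting error only. AGACT made up 10.1% of splicing sites (5.73% to 17.2%) and 15.8% of other sites.

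At GGACA the median fraction modified of splicing genes was 0.795 and 0.755, and that of other genes 0.688 and 0.665. At the remaining 5-mers splicing genes had the lower median in each replicate. At GGACC it was 0.183 and 0.149 against 0.217 and 0.229, at GGACT 0.240 and 0.202 against 0.268 and 0.250, and at AGACT 0.2 and 0.184 against 0.267 and 0.259. The difference, splicing minus other genes, was 0.0988 ± 0.0120 at GGACA, -0.0575 ± 0.0322 at GGACC, -0.0377 ± 0.0141 at GGACT and -0.0706 ± 0.00544 at AGACT (each SD, n = 2). Each exceeded the SD between replicates, but both replicates read mostly the same RNA positions, and an exact paired permutation test of 2 replicates cannot give less than p = 0.5 (two-sided), the value found for all 4. The sizes were not stable. At GGACA the difference was 0.0241 when all 75 positions with 20 reads in replicate 2 alone were taken and 0.178 when each gene counted once. At GGACT its sign turned in replicate 2 alone (0.0149) and without the coverage minimum (0.0278), and with each gene counted once it was 0.012 in replicate 1 and -0.0455 in replicate 2.

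The share of near-complete sites gave little difference. A fraction of at least 0.9 in both replicates was seen at 10 of the 44 GGACA sites (22.7%), where 20.7% of all GGACA sites reached it. A fraction of at least 0.5 in both was seen at 29 GGACA sites (65.9%, background 61.9%). At the other 5-mers 7 of 65 sites reached 0.5 in both (10.8%, 95% Wilson interval 5.32% to 20.6%), where 20.1% of all such sites did. By 5-mer these were 3 of 29 at GGACC (background 16.4%), 3 of 25 at GGACT (22.9%) and 1 of 11 at AGACT (21.1%). None of these 5-mers held a site of at least 0.9 in both, with 0 of 29 at GGACC (background 2.35%), 0 of 25 at GGACT (3.28%) and 0 of 11 at AGACT (1.18%), counts of 0 that allow shares of up to 11.7%, 13.3% and 25.9% (upper Wilson limits). A fraction under 0.1 in both was listed at 0 of 44 GGACA sites (background 2.62%, upper Wilson limit 8.03%), 5 of 29 GGACC sites (background 13.8%), 3 of 25 GGACT sites (15.6%) and 1 of 11 AGACT sites (13%).

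**Figure D1:**
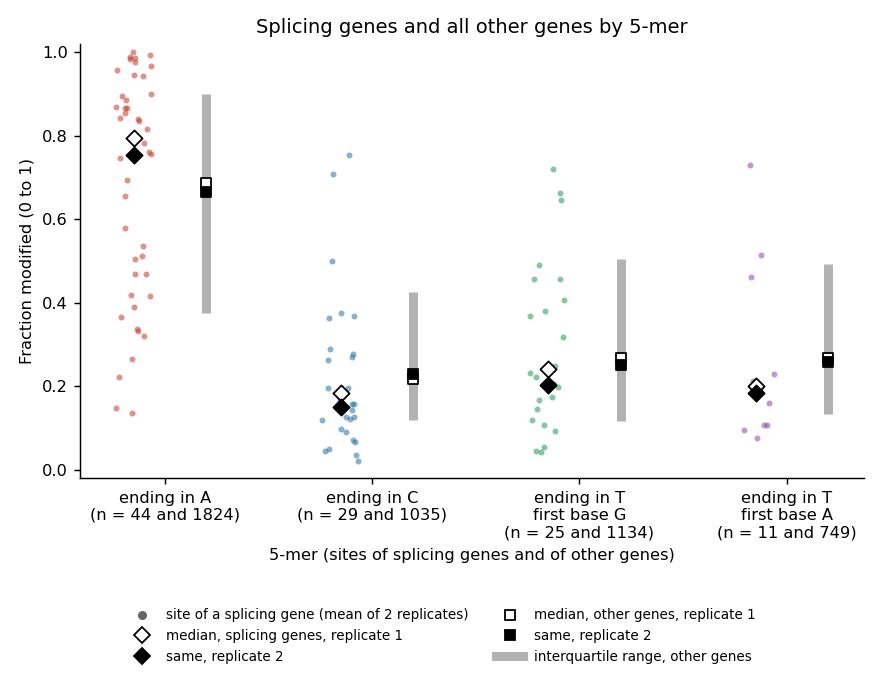
Fraction modified (y axis, 0 to 1) by 5-mer at the 109 sites of splicing genes (coloured points, mean of 2 replicates) and as medians per replicate of splicing genes (diamonds) and other genes (squares), with the interquartile range of other genes as a grey bar. The medians of splicing genes lie above those of other genes at the 5-mer ending in A (0.795 and 0.755 against 0.688 and 0.665) and below them at the rest, while the points spread over most of the range.

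The hnRNPs, abundant nuclear proteins that coat nascent RNA, had 42 sites in 15 of 20 listed genes. Their 15 GGACA sites had a median of 0.854 and 0.857 and ranged from 0.390 to 0.993 in mean fraction, and their 14 GGACC sites had a median of 0.191 and 0.140. The highest site with at least 50 reads among all splicing genes was the GGACA at position 896 of Hnrnpa1 (transcript ENSMUST00000036004.15; chromosome 15, 103148859 to 103155119; coordinates as deposited). It was modified at a fraction of 0.990 in replicate 1 (106 reads) and 0.996 in replicate 2 (237 reads), so it was high in each library. HNRNPA1 is an exon-repressing hnRNP, and the GGACT at position 1381 of the same transcript had 0.438 and 0.376 (165 and 353 reads). Position 1231 of Hnrnpdl (chromosome 5, 100181436 to 100187523), a relative of Hnrnpd, had 0.985 and 0.994 (73 and 176 reads).

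Of the 15 hnRNP GGACA sites, 5 reached 0.9 in both replicates (33.3%, where 20.7% of all GGACA sites did). In Hnrnpf (chromosome 6, 117877285 to 117902583), whose product binds G-rich RNA near exons, position 1328 had 1 and 0.975 (73 and 176 reads). In Hnrnpk (chromosome 13, 58538956 to 58551157), a poly(C)-binding protein, position 2047 had 0.954 and 0.930 (150 and 412 reads). In Hnrnpl, a binder of CA repeats, position 889 had 0.964 and 0.990 (31 and 106 reads), with the shallowest coverage of these. Hnrnph1 (chromosome 11, 50267817 to 50277355) and Hnrnpu (chromosome 1, 178148673 to 178165362), a scaffold-associated hnRNP, followed with 0.854 and 0.884 at position 362 and 0.857 and 0.913 at position 1430. In Hnrnpr (chromosome 4, 136038253 to 136086758) the GGACA sites at positions 2080 and 2199 had 0.875 and 0.857, and 0.790 and 0.778, over 22 to 44 reads.

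These transcripts held low sites as well. In Hnrnpf the GGACC sites at 722 and 1629 had 0.319 and 0.233, and 0.159 and 0.231, and the GGACT at 636 had 0.361 and 0.273. In Hnrnpk the GGACC at 1430 had 0.0577 and 0.0410 (128 and 375 reads), the second lowest mean of any splicing site with 50 reads, and the GGACC at 1600 had 0.183 and 0.130. The GGACT at position 240 of Hnrnpk was intermediate, with 0.420 and 0.561 (66 and 246 reads). Sites of the Hnrnpk transcript thus ranged from 0.0410 to 0.930 in replicate 2. The lower sites of Hnrnph1 had 0.133 and 0.151 at its GGACC and 0.194 and 0.216 at its GGACT. Those of Hnrnpu had 0.229 and 0.0877 at its GGACC and 0.244 and 0.18 at its AGACT, and Hnrnpr and Hnrnpl had GGACC sites with 0.211 and 0.0417, and 0.267 and 0.458.

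Hnrnpa0 (chromosome 13, 58273693 to 58276370; transcript ENSMUST00000007980.6) had 7 sites, none above 0.398 in either replicate, with a mean of 0.223 ± 0.00558 (SD, n = 2). Coverage reached 678 reads here. The highest were the GGACA at 2267, with 0.398 and 0.382 (140 and 392 reads), and the GGACC at 1114, with 0.388 and 0.348 (226 and 532 reads). The 4 GGACT sites had 0.262 and 0.153 at position 348, 0.170 and 0.179 at 1302, 0.217 and 0.245 at 1347 and 0.0841 and 0.102 at 1522. The GGACC at 1372 was the lowest in replicate 1, with 0.0683 and 0.125 (247 and 579 reads). The replicates differed most at position 348, by -0.109 (replicate 2 minus replicate 1).

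Hnrnpa3 (chromosome 2, 75489605 to 75499751; ENSMUST00000111962.7) had 5 sites averaging 0.547 ± 0.00669 (SD, n = 2). The GGACA at position 1000 had 0.773 and 0.722 (127 and 344 reads) and the GGACT at 1315 had 0.488 and 0.427 (152 and 399 reads). Far downstream the coverage was lower. There the GGACA sites at 4487, 4559 and 4848 had 0.409 and 0.421 (32 and 69 reads), 0.609 and 0.781 (34 and 69 reads) and 0.478 and 0.359 (32 and 73 reads). Of the remaining hnRNPs, Hnrnpa2b1 had 0.382 and 0.370 (88 and 238 reads) at a GGACC and Hnrnpc, whose product binds U tracts, had 0.4 and 0.525 (64 and 153 reads) at an AGACT. Both proteins have been linked to m6A. Hnrnpd had 0.535 and 0.403 (72 and 128 reads) at a GGACA, Hnrnpab had GGACC sites with 0.122 and 0.122 at 350 and 0.2 and 0.193 at 1360, and Hnrnpm had 0.0417 and 0.0476 (31 and 109 reads) at a GGACC.

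**Figure D2:**
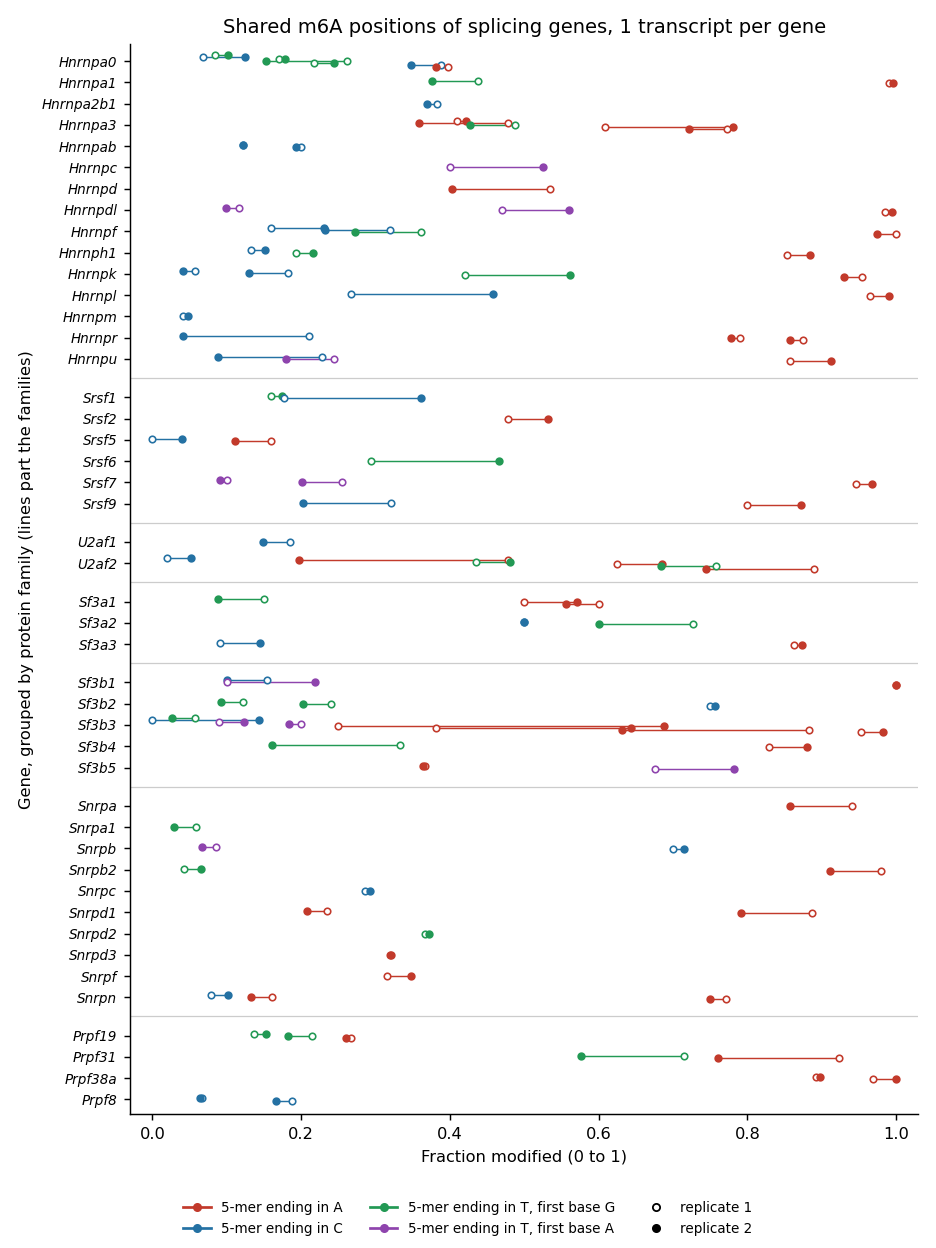
Fraction modified (x axis, 0 to 1) at each of the 109 sites of the 45 splicing genes (y axis, grouped by protein family), with replicate 1 as an open and replicate 2 as a filled circle joined by a line, coloured by 5-mer. Near-complete sites are of the 5-mer ending in A (from Hnrnpa1 at 0.990 and 0.996). Transcripts with several sites often hold them at differing levels, and the longest line is that of Sf3b3 at position 2002.

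SR proteins, which bind exonic enhancers through RNA-recognition motifs and contact the spliceosome through serine-arginine tails, had 11 sites in 6 of 10 listed genes. Srsf7 (chromosome 17, 80507509 to 80514736; ENSMUST00000063417.9) had 3 sites. Its GGACA at position 1994 had 0.946 in replicate 1 (71 reads) and 0.968 in replicate 2 (170 reads), the fourth highest of the splicing sites with 50 reads. The AGACT sites on either side had 0.1 and 0.0916 (65 and 160 reads) at 1711 and 0.255 and 0.202 (71 and 170 reads) at 2203. The high site of Srsf7 thus lay between low sites of similar coverage.

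Srsf9 had a GGACA with 0.8 and 0.872 (51 and 124 reads) and a GGACC with 0.321 and 0.203 (49 and 124 reads). Srsf2, an SR protein that also acts in transcription elongation, had 1 site, a GGACA with 0.478 and 0.532 (144 and 411 reads). Srsf5 was low at a GGACA as well, with 0.160 and 0.111 (28 and 69 reads), and at a GGACC with 0 and 0.0395. Srsf1, the prototype of the family, had 0.177 and 0.362 at a GGACC and 0.160 and 0.175 at a GGACT over 25 to 93 reads. The GGACT of Srsf6 had 0.294 and 0.466 (60 and 144 reads). Among the 4 GGACA sites of SR genes, both values of Srsf5 were below, and both of Srsf7 above, those of the others.

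U2AF recognises the polypyrimidine tract and the AG at the 3′ end of introns. The large subunit gene U2af2 (chromosome 7, 5065142 to 5082937; ENSMUST00000005041.14) had 6 sites averaging 0.504 ± 0.0426 (SD, n = 2). Its GGACT at position 1743 had 0.758 and 0.683 (54 and 117 reads), one of the 7 sites of at least 0.5 outside GGACA. The GGACC at 1999 had 0.0196 and 0.0517 (55 and 121 reads), the lowest mean of all splicing sites with 50 reads. The GGACA sites had 0.889 and 0.744 at 202, 0.478 and 0.197 at 1072 and 0.625 and 0.686 at 1126, and the GGACT at 1552 had 0.435 and 0.481. The neighbouring sites at 1072 and 1126 were thus ordered alike in both replicates, although the former differed between them (replicate 2 minus replicate 1) by -0.282. The small subunit gene U2af1 had 1 site, a GGACC with 0.185 and 0.149 (68 and 135 reads).

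SF3A and SF3B hold U2 snRNA at the branch point. The 3 SF3A genes had 7 sites. Sf3a1 (chromosome 11, 4110350 to 4132541) had 3, with GGACA sites of 0.6 and 0.556 at 2199 and 0.5 and 0.571 at 2717 and a GGACT of 0.15 and 0.0877 at 2838, over 20 to 73 reads. Sf3a2 had a GGACT with 0.727 and 0.6 (21 and 44 reads) and a GGACC with 0.5 and 0.5 (21 and 44 reads), both intermediate to high for these 5-mers. Sf3a3 had a GGACA with 0.862 and 0.873 (39 and 114 reads) and a GGACC with 0.0909 and 0.145 (26 and 90 reads).

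In SF3B, 5 of 6 listed genes had 18 sites. Sf3b1 (chromosome 1, 55024328 to 55066640; ENSMUST00000027127.13) encodes the subunit that clamps the branch point. Its GGACA at 3652 had a fraction of 1 in both replicates, over 35 and 82 reads, while its AGACT at 3173 had 0.1 and 0.218 (27 and 74 reads). Sf3b2 (chromosome 19, 5323960 to 5345483) had a GGACC with 0.750 and 0.757 (39 and 119 reads), the highest mean at this 5-mer among splicing genes. Its GGACT sites at 1967 and 2780 were low, with 0.240 and 0.202, and 0.122 and 0.0923. Sf3b5, a small subunit, was higher at its AGACT than at its GGACA. The AGACT at 3672 had 0.676 and 0.783 (134 and 200 reads), above its GGACA at 3523 with 0.367 and 0.364 (132 and 197 reads), a difference larger than the spread between replicates at either site. Sf3b4 had a GGACA with 0.829 and 0.880 (59 and 132 reads) and a GGACT with 0.333 and 0.161 (55 and 127 reads).

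Sf3b3 (chromosome 8, 111536871 to 111573419; ENSMUST00000042012.6) had 8 sites and the widest disagreement between replicates. Its GGACA at 1551 had 0.952 and 0.982 (25 and 71 reads), and those at 1375, 1886 and 2002 had 0.882 and 0.632 (24 and 69 reads), 0.381 and 0.644 (36 and 80 reads) and 0.250 and 0.688 (37 and 82 reads). Of these, the site at 1551 was high in each library, while the order of the remaining GGACA sites was turned between libraries. The other sites were low in both: 0.2 and 0.184 at the AGACT at 397, 0.0893 and 0.123 at the AGACT at 3923, 0 and 0.143 at the GGACC and 0.0571 and 0.0260 at the GGACT. The mean over the 8 sites was 0.390 ± 0.0538 (SD, n = 2), and only the AGACT at 3923 had 50 reads in both.

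**Figure D3:**
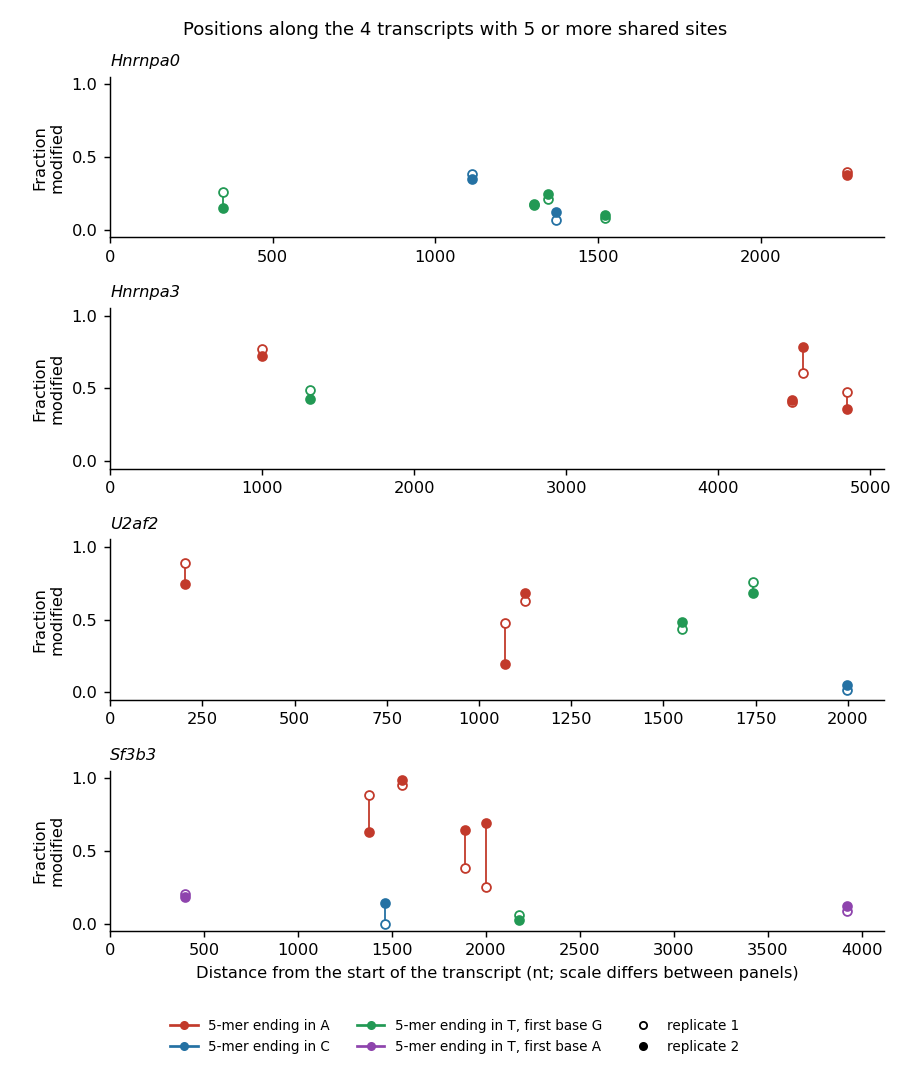
Fraction modified (y axis, 0 to 1) along the transcripts of the 4 splicing genes with 5 or more sites, by distance from the transcript start in nt (x axis, scaled per panel), replicate 1 open and replicate 2 filled, coloured by 5-mer. Hnrnpa0 stays at or under 0.398 throughout, U2af2 and Sf3b3 hold sites at both ends of the scale, and 3 sites of Sf3b3 differ between replicates by -0.251 to 0.438 (replicate 2 minus replicate 1).

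The snRNP proteins include the Sm proteins, which form the ring around the small nuclear RNAs, and proteins of the U1 and U2 particles. Here 10 of 11 listed genes had 15 sites, with the deepest median coverage of the families, 129 and 209 reads. Their 8 GGACA sites had a median of 0.546 and 0.549, lower than that of the hnRNPs, and this gap was not tested. The Sm genes Snrpd3 and Snrpf had 1 GGACA each, with 0.320 and 0.321 (195 and 325 reads) and 0.316 and 0.348 (157 and 293 reads). Both were among the 5 lowest GGACA sites with 50 reads and differed little between replicates. Snrpd2 had 1 GGACT with 0.366 and 0.372 (381 and 486 reads).

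Snrpd1 and Snrpn each held 1 high and 1 low GGACA. In Snrpd1 position 579 had 0.886 and 0.792 (103 and 162 reads) and position 185 had 0.235 and 0.208 (203 and 342 reads). In Snrpn (chromosome 7, 59632243 to 59789967; ENSMUST00000059305.16), an imprinted gene whose mRNA also encodes SNURF, position 151 had 0.771 and 0.750 (56 and 99 reads) and position 1096 had 0.161 and 0.133 (73 and 102 reads), while the GGACC at 324 had 0.0784 and 0.101. Both genes thus differed by at least 0.584 between sites of an identical 5-mer in each replicate. The related Snrpb, whose product SNRPN resembles, had a GGACC at 906 with 0.701 and 0.714 (292 and 568 reads) and an AGACT at 1034 with 0.0855 and 0.0674 (293 and 567 reads). The former was the second highest GGACC of the splicing genes and agreed between replicates to within 0.0137.

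In the U2 gene Snrpb2 the GGACA at 236 had 0.980 and 0.911 (124 and 200 reads), and the GGACT at 787 had 0.0426 and 0.0654 (129 and 209 reads). Snrpa1, also of U2, had a GGACT with 0.0588 and 0.0290 (36 and 79 reads). Of the U1 genes, Snrpa had a GGACA with 0.941 and 0.857 (24 and 64 reads) and Snrpc a GGACC with 0.286 and 0.292 (160 and 276 reads).

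PRPF factors act in the tri-snRNP and in activation of the spliceosome, and 4 of their 12 listed genes had 9 sites, at the lowest median coverage of 21 and 55 reads. Prpf38a had GGACA sites with 0.969 and 1 (36 and 75 reads) and 0.893 and 0.898 (45 and 95 reads). Prpf31, a tri-snRNP protein whose human counterpart is mutated in retinitis pigmentosa, had a GGACA with 0.923 and 0.760 (21 and 50 reads) and a GGACT with 0.714 and 0.576 (20 and 55 reads). Prpf19 (chromosome 19, 10872595 to 10886923; ENSMUST00000179297.2), the ubiquitin ligase of the activation complex, had 3 shared sites, all low, with a mean of 0.202 ± 0.00530 (SD, n = 2). These were 0.267 and 0.261 at its GGACA and, at its GGACT sites, 0.214 and 0.182 at 1353 and 0.136 and 0.152 at 1948. A further GGACA between them, at 1719, had 0.684 over 49 reads in replicate 2 and was not listed in replicate 1. On another transcript, ENSMUST00000025642.13, the positions paired with both Prpf19 GGACT sites had deeper coverage, with 0.250 and 0.283 (94 and 227 reads) and 0.198 and 0.123 (93 and 225 reads). Prpf8, the core protein of the catalytic centre, had GGACC sites with 0.0667 and 0.0645 at 6536 and 0.188 and 0.167 at 7272, over 20 to 76 reads.

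Sites lying close together had nearly equal coverage and could differ sharply in level. Each pair below joins different 5-mers, whose medians differ, so the parts of 5-mer and position cannot be told apart. Within 25 nt of each other there were 3 pairs, a distance chosen after the values were seen. Their sequences are written from the deposited 5-mers and their spacing, with the adenosine of each 5-mer in capitals and n for bases that the tables do not give:
Sf3b1, positions 3652 and 3658: ggAcanggAcc
Hnrnpdl, positions 1231 and 1245: ggAcannnnnnnnnagAct
Hnrnpa0, positions 1347 and 1372: ggActnnnnnnnnnnnnnnnnnnnnggAcc
In Sf3b1, 6 nt apart, the GGACA had a fraction of 1 in each replicate and the GGACC 0.154 and 0.1, over 35 and 82 reads at both. In Hnrnpdl, 14 nt apart, the GGACA had 0.985 and 0.994 and the AGACT 0.117 and 0.0988. The further AGACT of Hnrnpdl at 1428 had 0.471 and 0.560 (79 and 184 reads). The difference within the pair was 0.846 and 0.9 in Sf3b1 and 0.868 and 0.895 in Hnrnpdl, and it was 0.148 and 0.120 in Hnrnpa0. In Sf3b1 and Hnrnpdl the high site was the GGACA.

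The 5-mer alone did not fix the level. In 20 combinations of a gene and a 5-mer there were at least 2 sites. The highest and lowest of each, picked on their means, differed by a median of 0.144 and 0.110. The difference was over 0.3 in both replicates in 5 of the 20, where 43.4% of all combinations of a gene and a 5-mer with at least 2 sites had such a difference. They were GGACA in Snrpd1 (0.652 and 0.584), Snrpn (0.610 and 0.618), U2af2 (0.411 and 0.548) and Hnrnpa3 (0.364 and 0.3), and AGACT in Hnrnpdl (0.354 and 0.461).

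Agreement between replicates at splicing sites was close to that at other sites. Across the 109 sites Pearson's r was 0.954 and Spearman's rho 0.944, against 0.948 and 0.938 across other genes. These are descriptions across sites that share libraries and transcripts. The root mean square difference was 0.0946, against 0.100 at other sites. With 50 reads in both it was 0.0629 over 59 sites of 30 genes, against 0.0653. Replicate 2 gave the higher value at 52 sites, replicate 1 at 55, and 2 sites were equal. The largest difference with 50 reads was at the GGACT of Sf3b4, with 0.333 and 0.161, followed by Srsf6, position 240 of Hnrnpk, Hnrnpd and Hnrnpc, at 0.125 to 0.172.

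A difference over 0.2 was seen at 4 sites (3.67%), where 6% of all sites exceeded it. They were positions 2002, 1886 and 1375 of Sf3b3 and position 1072 of U2af2, all GGACA and each with under 40 reads in replicate 1. Against the SD expected from binomial sampling if every covering read counted, which is a lower limit since not every read entered the fraction, the spread can be scaled. The difference exceeded 3 such SDs at 2 of 108 sites (1.85%, background 1.56%). These were Sf3b3 at 2002, where it was 4.44 SDs, and U2af2 at 1072, where it was 3.05.

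**Figure D4:**
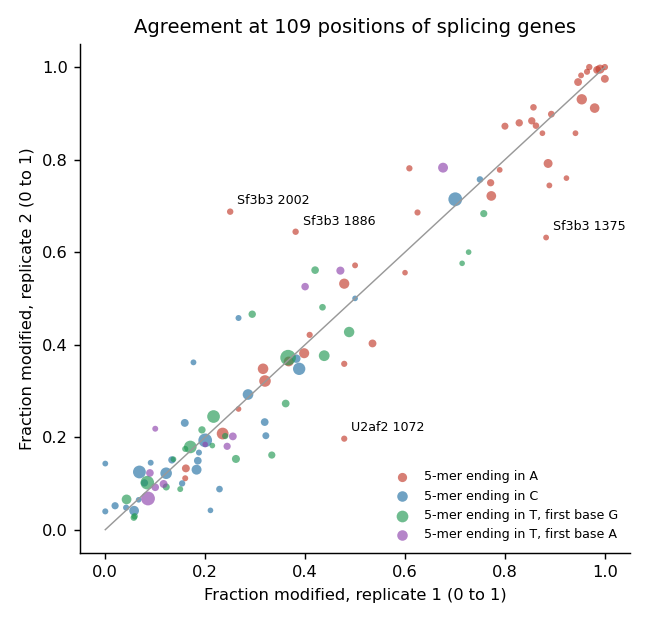
Fraction modified in replicate 1 (x axis) and replicate 2 (y axis), both from 0 to 1, at the 109 sites of splicing genes, coloured by 5-mer, with point area rising with the lower coverage of the replicates and the line of equal values in grey. The points follow the line, and the 4 named points, 3 of Sf3b3 and 1 of U2af2, differ by more than 0.2 and are small.

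Splicing genes often had sites on several transcripts: 15 of the 45 genes (33.3%) did, where 8.37% of all genes with a site did. Their higher coverage moved with this share, and its part was not tested. The genes were Hnrnpa1, Hnrnpa2b1, Hnrnpa3, Hnrnpab, Hnrnpc, Hnrnpd, Hnrnpf, Hnrnpk, Hnrnpl, Hnrnpm, Hnrnpr, Prpf19, Prpf8, Snrpa and U2af2. How reads were divided among near-identical isoforms is not given in the sources used here, so the level of a single isoform is uncertain. Isoforms were aligned on their listed positions. Where the same 5-mers recurred on a further transcript at 1 constant offset in at least 2 positions, they were taken as the same stretch. This paired 21 of 32 further sites with the main transcript, in 10 genes.

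At these 21 pairs the isoforms differed by a root mean square of 0.0881 and 0.0674. The replicates differed by 0.0671 on the main and 0.108 on the further transcripts. The mean difference was within 0.1 at all 21, and at none was a difference over 0.1 of the same sign in both replicates. The 11 unpaired sites fall outside these counts. Of these, the AGACT at 882 of ENSMUST00000164655.1 in Hnrnpc had 0.292 and 0.391 (34 and 90 reads). The AGACT at 883 of its main transcript had 0.4 and 0.525, higher in both replicates. Whether both are the same stretch is not known, and this case was picked after the values were seen. In Hnrnpf, 4 sites recurred on ENSMUST00000180020.7 at an offset of 131 nt, and the near-complete GGACA had 1 and 0.946 (47 and 104 reads) there. In Hnrnpk, 3 recurred on ENSMUST00000177019.7 at an offset of -247 nt, the GGACA with 0.912 and 0.965. In Hnrnpl the GGACA recurred with 1 and 0.988 at an offset of 537 nt, and in Hnrnpr the GGACA sites recurred with 0.867 and 0.933 at 2220 and 0.813 and 0.810 at 2339, an offset of 140 nt. The GGACA sites of these 4 genes were thus high on both transcripts. The largest mean difference, 0.0983, was at the GGACC at 1353 of the further Hnrnpk transcript. Among the unpaired, Hnrnpa1 held its deepest site, a GGACT with 0.515 and 0.435 (390 and 897 reads), on ENSMUST00000087351.7.

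**Figure D5:**
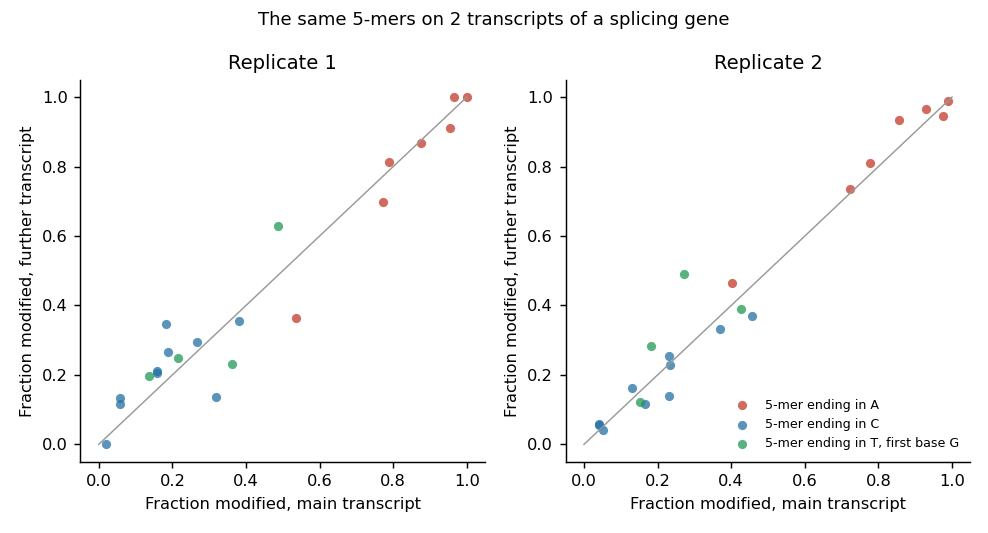
Fraction modified on the main transcript (x axis) and on a further transcript of the same gene (y axis), both from 0 to 1, at 21 paired positions in 10 splicing genes, 1 panel per replicate, coloured by 5-mer, with the line of equal values in grey. The points follow the line in both panels, with a root mean square distance of 0.0881 in replicate 1 and 0.0674 in replicate 2.

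A position could be listed in 1 library and absent from the other even where its transcript was covered there. Cover here means the most reads at any listed position of the transcript. The depth at the unlisted position itself is not known and may be lower. Of 178 splicing positions with 20 reads in replicate 1, on all transcripts, 141 had them in replicate 2 as well. A further 34 (19.1%, 95% Wilson interval 14% to 25.5%) were not listed in replicate 2 although their transcript reached 20 reads there. Among other genes this share was 17.1%. In the other direction, of 294 splicing positions with 20 reads in replicate 2, 40 (13.6%, interval 10.2% to 18.0%) were not listed in replicate 1 although their transcript reached 20 reads there, against 7.87% among other genes. Of the 40, 14 were positions of Prpf8, whose transcripts reached only 26 to 28 reads in replicate 1. Without that gene, left out after the values were seen, the share was 26 of 269 (9.67%, interval 6.68% to 13.8%). These intervals cover counting error only. Positions share genes, and some recur on several transcripts, so the intervals may be too narrow for a comparison with other genes. The 34 had a median fraction of 0.179 in replicate 1, against 0.333 at the 141, and the 40 had 0.328 in replicate 2, against 0.362. In other genes these medians were 0.273 against 0.375 in replicate 1 and 0.302 against 0.363 in replicate 2. GGACA made up 17.6% of the 34 and 27.5% of the 40, against 39.0% of the 141, and 25.9% and 28.4% against 38.4% in other genes. The medians and shares of the unlisted positions were thus lower in both groups of genes, in a description that holds no test. For example, position 522 of the main Hnrnpf transcript, a GGACA, had 0.0392 over 68 reads in replicate 1 and was not listed in replicate 2, and position 2004 of Hnrnpu, a GGACA, had 0.0690 over 49 reads. High ones occurred too, such as the GGACA at 2291 of Hnrnpk with 0.885 over 50 reads and the GGACC at 811 of Hnrnpa2b1, 6 nt before its shared site, with 0.781 over 88 reads. These examples were chosen after their values were seen.

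There were 20 members without a shared site. Sf3b6, the subunit next to the branch point adenosine, had GGACA sites at 444 and 552 with fractions of 0.378 and 0.435 over 206 and 207 reads in replicate 1, and none of its positions was listed in replicate 2. In replicate 2 alone, 12 of the 20 had sites, 37 in all. Srsf4 had 8 of them, which are 4 positions on each of 2 transcripts at a constant offset, and the GGACT listed at 2886 on one and at 2043 on the other had 0.969 over 38 reads and 0.862 over 32. Hnrnph2 had 6, from 0.0435 to 0.917, over 24 to 32 reads. Prpf6, a tri-snRNP bridge, had a GGACA with a fraction of 1 over 31 reads, and Hnrnpul2 one with 0.933 over 33. Srsf11 had an AGACT on each of 3 transcripts, with 0.154, 0.177 and 0.191. The 12 also included Hnrnph3, Hnrnpll, Hnrnpul1, Prpf4, Prpf4b and Srsf10, and Hnrnph3 had 1 site in replicate 1 at another position, an AGACT with 0.263 over 23 reads. Prpf18, Prpf3, Prpf38b, Prpf40b, Snrpe, Srsf3 and U2af1l4 had no site of 20 reads in either library. These values come from 1 library and have no replicate check.

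A list of 70 other splicing genes gave the setting outside the name rule. Of these, 65 were listed and 34 had 79 sites. Their medians were 0.661 and 0.664 at 38 GGACA sites, 0.333 and 0.250 at 15 GGACC sites, 0.469 and 0.414 at 15 GGACT sites and 0.286 and 0.306 at 11 AGACT sites. The remaining genes had 0.688 and 0.665 at GGACA, 0.217 and 0.227 at GGACC, 0.267 and 0.244 at GGACT and 0.267 and 0.258 at AGACT. The medians of these other splicing genes thus lay above those of the remaining genes outside GGACA, where the genes chosen by name lay below other genes. At GGACA they were slightly lower in replicate 1 and nearly equal in replicate 2. These differences were not tested. The count of GGACA sites of at least 0.9 in both replicates was 9 of 38 (23.7%, background 20.7%). The mean over its sites was 0.992 ± 0.0109 in Sfpq, a paraspeckle and splicing protein with 1 site, 0.619 ± 0.0204 over 3 sites in Ptbp1, which represses neuronal exons, and 0.714 ± 0.0249 over 2 sites in the helicase gene Snrnp200. Snw1 and Puf60 had 6 sites each, with means of 0.558 ± 0.00296 and 0.536 ± 0.00686, and Dhx15 had 7 with 0.578 ± 0.0438 (each SD, n = 2). These genes were named after their values were seen.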

How the data were processed

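Both libraries of direct RNA from day 6 organoids were analysed. Coverage is a deposited count of whole reads over a position, and the fraction modified is a deposited fraction from 0 to 1. Its denominator is not stated, and only 22.4% of the values of splicing genes and 37.3% of those of other genes equal a whole number of reads divided by the coverage to within 0.00005, so no read counts were derived and no test of reads was run. Per the submitters' processing notes the build is mm10, but of 8174 gene names matched to RefSeq for GRCm38.p6 only 3.03% had a start within 1000 bases of the deposited one, so gene coordinates are printed as deposited and combined with nothing. The base caller, aligner, modification caller and listing rule are not given in the sources used here.

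Positions are the listed interval ends. Over all genes, 22 of 129 listed positions at 5 to 45 nt had their 5-mer in a RefSeq promoter window starting 3 bases upstream of the listed end, and no other offset had more than 2. Sites needed 20 reads in both replicates (no row has under 5). The transcript of a gene was that with most sites, ties by coverage. Where a member has sites on several transcripts, the text gives the main one unless another is named. No position of a splicing gene was in the minus tables.

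Medians were taken per replicate within each 5-mer, beside all other genes, with Python 3.11.15, pandas 2.3.3, numpy 2.4.6 and scipy 1.17.1. The code was tested on simulated fractions with a known shift. Genes with 3 or more sites, the 5 highest, 5 lowest and 5 most different sites with 50 reads, and genes with several isoforms were named by rule, and the remaining members are named regardless of their values, except that some items are not reported here. The members, the list of other splicing genes and the tests were chosen with earlier results of these data known.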

Additional observations from a re-analysis of the deposited data

How the results depend on the processing

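Of 30 alternative values for the 4 differences by 5-mer, 28 kept their direction. The exceptions were GGACT without a coverage minimum (0.0278) and without replicate 1 (0.0149). With each gene counted once, GGACT kept its mean direction but had opposite signs in the replicates. The difference ranged from 0.0241 to 0.178 at GGACA, -0.0844 to -0.0279 at GGACC, -0.0518 to 0.0278 at GGACT and -0.0739 to -0.0409 at AGACT. Leaving out 1 replicate, with sites then set by the other alone, gave 0.0241 to 0.094 at GGACA, -0.0739 to -0.0457 at GGACC, -0.0278 to 0.0149 at GGACT and -0.0706 to -0.0533 at AGACT. With means in place of medians it was 0.0579 at GGACA. Among the 30, 2 GGACA alternatives were chosen after seeing the data. The GGACA difference was 0.106 without Sf3b3 and 0.105 at sites whose replicates lay within 0.2 of each other. With 50 reads 61 sites were shared, against 109 with 20 reads, because fewer positions reach that depth; here the transcript of each gene was chosen anew at 50 reads, while 59 sites remain on the transcripts chosen at 20 reads. The root mean square difference between replicates was 0.140 without a minimum, 0.0627 with 50 reads and 0.0953 on all transcripts. Of 28 values of the 16 genes with 3 or more sites, under alternatives chosen after seeing the data, 10 moved by more than the SD between replicates, and 4 of the genes had no site with 50 reads in both replicates on the transcript used for the summary. No paired analysis was possible because the samples form 1 group, so no groups of samples share replicate numbers (the exact test by 5-mer pairs gene sets within a library). The 4 sites with differences over 0.2 had under 40 reads in replicate 1, and at 2 of them the difference exceeded 3 sampling SDs; the part of depth was not tested.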
